A study of Mus musculus with 20 samples.

Results

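MHC-II-high C1q-low tumor macrophages were the cells of 4T1.2 breast cancers that held many transcripts of the MHC class II chains and few or none of the complement component C1q. They were picked from the scRNA-seq of macrophages isolated from tumors (TAM) by the corrected counts of 9 genes. A cell was included when S100a8 and S100a9 summed to under 300, Csf1r was at least 1, C1qa, C1qb and C1qc summed to under 30, and H2-Aa, H2-Ab1 and H2-Eb1 summed to at least 20. The rule found 1105 of the 10885 tumor cells. The conditions on S100a8 and S100a9, which are highest in neutrophils, and on Csf1r, the receptor of the macrophage growth factor M-CSF, left 3811 cells that are called gated cells here. The other 2706 gated cells were the comparison group. By the same limits they split into 2192 MHC-II-low C1q-low cells, 257 MHC-II-high C1q-high cells and 257 MHC-II-low C1q-high cells.

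The study asked whether cancers turn B-cell precursors of the bone marrow (BM) into macrophages, and it sequenced TAM next to macrophages grown in culture from BM B cells (B-MF) or from monocytes (Mo-MF). The tumors came from 4T1.2 cells, a mouse mammary carcinoma line used as a model of triple-negative breast cancer, in young female mice. The methods put 4T1.2 cells into BALB/cJ mice or into μMT mice, which lack mature B cells, and which of these hosts gave the TAM, and how long after injection, is not given in the sources used here. The 4 tumor libraries had the same label and no further treatment, so every comparison below is between cells of the same libraries. They are numbered 2 to 5 in the deposited table, and values for single libraries are given in that order. The labels do not tie a library to a mouse, so the spread between libraries may be partly technical.

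MHC class II molecules, the products of H2-Aa, H2-Ab1 and H2-Eb1, display peptides to CD4 T cells. Dendritic cells and B cells carry them at all times, while monocytes and macrophages put them on when interferon-γ induces CIITA, the coactivator of the class II genes. The invariant chain CD74 guards the peptide groove until H2-DM loads the peptide. C1q is made by macrophages that have matured in tissue, and in tumors monocytes newly arrived from the blood typically lack it, so that class II and C1q together are often used to sort TAM into stages.

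The gated cells were checked against markers of the types they could hold. Macrophage markers summed to 107 to 120 corrected counts per cell by library in the MHC-II-high C1q-low cells. The same sum was 119 to 136 in the other gated cells and 48.8 to 57.5 in the cells with S100a8 and S100a9 at or above 300. Over libraries, Lyz2 (lysozyme) averaged 48.3 ± 8.44 corrected counts per cell (SD, n = 4) in the MHC-II-high C1q-low cells, Apoe 20.1 ± 3.24 and Cd68 3.80 ± 0.329. Adgre1, which encodes F4/80, was counted in 290 of these cells (26.2%). Monocyte markers summed to 43.1 to 50.5 counts per cell by library. They summed to 62.4 to 68.5 in the MHC-II-low C1q-low and 17.1 to 25.8 in the MHC-II-high C1q-high cells. In the cells with S100a8 and S100a9 at or above 300 they summed to 42.0 to 44.8, which overlaps the MHC-II-high C1q-low cells. This sum therefore does not part the 2 groups. Ccr2, a monocyte gene, was counted in 939 of the MHC-II-high C1q-low cells (85.0%). Genes that define dendritic cells were counted in few cells. Flt3 was counted in 35 of the 1105 cells, Zbtb46 in 14, Clec9a in 10, Xcr1 in 9 and Fscn1 in 5. Itgax and Dpp4, given with the dendritic cell genes below, were counted in 533 (48.2%) and 169 (15.3%). The summed neutrophil markers reached 15.9 to 20.6 per cell in the 4 libraries, against 233 to 260 in the cells with S100a8 and S100a9 at or above 300. B-cell markers summed to 0.259 to 1.93, with the lowest value in library 2, and 33 of the 1105 cells (2.99%) held at least 2 of the listed B-cell markers. Markers of T and NK cells summed to 0.412 to 0.662, of plasmacytoid dendritic cells to 0.0567 to 0.0956, and of tumor and stromal cells to 0.331 to 0.583. At least 2 markers of another type were counted in 93 cells (8.42%). No doublet caller was run. Of the 5 marker genes proposed for these cells, Cd74 was counted in every cell, H2-Ab1 and H2-Eb1 were part of the rule, Cxcl9 was counted in 260 cells (23.5%) and Timd4 in 94 (8.51%), so that Cxcl9 and Timd4 marked a minority.

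The MHC-II-high C1q-low cells had a median of 8493.5 to 8572 corrected counts and 2545 to 2573.5 detected genes by library, and mitochondrial transcripts made up 2.67 to 3.46% of the counts. The MHC-II-low C1q-low cells had medians of 8497 to 8593 corrected counts. SCTransform, the authors' correction, brings cells to a shared total, so these totals do not give the sequencing depth. Among all tumor cells, 13 barcodes occurred in more than 1 library, and 1 such cell was MHC-II-high C1q-low.

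MHC-II-high C1q-low cells were present in every library. They were 424 of 1541 gated cells in library 2 (27.5%, 95% interval 25.3 to 29.8), 136 of 581 in library 3 (23.4%, 20 to 27.1), 282 of 836 in library 4 (33.7%, 30.5 to 37.0) and 263 of 853 in library 5 (30.8%, 27.7 to 34.1). The mean share was 28.9% ± 4.44 (SD, n = 4), with library 3 the lowest and library 4 the highest. The intervals are exact binomial and cover counting error only. As a share of all cells of the library they made up 13.3, 5.87, 11.8 and 8.77%. MHC-II-high C1q-high cells were rarer and less even, with 165, 8, 40 and 44 cells, so the values of that population in library 3 rest on 8 cells.

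**Figure D1:**
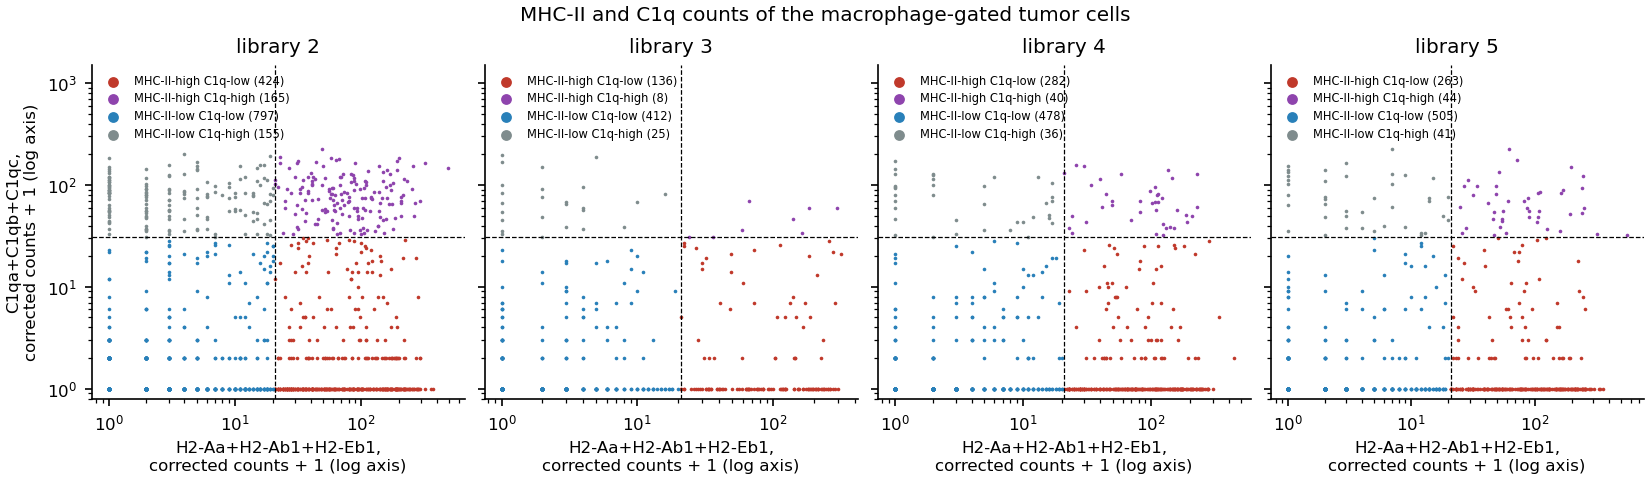
Each point is a gated cell, with the summed corrected counts plus 1 of H2-Aa, H2-Ab1 and H2-Eb1 on the x axis and of C1qa, C1qb and C1qc on the y axis, both on log scales, in 1 panel per library, and dashed lines mark the limits. The MHC-II-high C1q-low cells, in red, fill the lower right corner of each panel, with 424, 136, 282 and 263 cells.

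The genes of the rule are given as a description. H2-Aa averaged 38.1, 45.5, 39.2 and 40 counts per cell in the MHC-II-high C1q-low cells, and H2-Eb1 averaged 25.4, 30.6, 25.8 and 26.2. The MHC-II-high C1q-high cells lay at about the same class II level, with means over libraries of 39.5 for H2-Aa and 30.8 for H2-Eb1. The summed class II count was spread widely within the selected cells, with a median of 79, quartiles of 40 and 151 and a highest value of 438. C1q was not counted at all in 784 of the 1105 cells (71.0%). Csf1r averaged 3.0 ± 0.260 in them and 2.62 ± 0.0834 in the other gated cells (SD, n = 4).

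Cells just inside and just outside each limit were alike in some genes and unlike in others. The 79 cells with a class II sum of 20 to 24 averaged 33.6 Cd74 counts and 0.848 H2-DMb1 counts, and the 86 cells just outside, with 15 to 19, averaged 28.2 and 0.651. Cxcl9, which encodes a ligand of CXCR3, averaged 0.456 inside this limit and 1.85 outside. Across the C1q limit, the 22 cells with 25 to 29 counts averaged 6.05 counts of Plac8 and the 21 cells with 30 to 34 averaged 8.19, while Cxcl9 averaged 7.68 inside and 3.33 outside. Across the S100a8 and S100a9 limit, Retnlg, a neutrophil gene, averaged 4.98 in 84 cells inside and 5.65 in 37 cells outside, and Timd4 averaged 0.0952 and 0.405. The Csf1r limit parted different cells: the 247 cells with a single Csf1r count averaged 33.6 counts of Lyz2 and 0.215 of Cd79a, while the 476 cells without Csf1r that met the other limits averaged 9.40 of Lyz2 and 7.07 of Cd79a, a component of the B-cell receptor.

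The class II genes lie together on chromosome 17, and their promoters are known to share an X box and a Y box to which CIITA is brought. RefSeq start sites (GRCm38.p6) were found for 8 of the 10 class II genes and regulators looked up, and the 110 bases upstream of each were searched for GCAAC, letters found in the X box, followed after 25 to 30 bases by ATTGG, the Y box, on the strand of the gene. The spacing was chosen after the sequences had been viewed. H2-Aa, H2-Eb1, H2-Oa and H2-Ob held the pair, at spacings of 28, 27, 28 and 25 bases. Among all promoter windows of this length, 20 of 32851 (0.0609%) held the pair on the gene's strand and 21 (0.0639%) on the other, while ATTGG alone was in 20.2% and GCAAC alone in 15% of windows on either strand. The windows of H2-DMb1 and H2-DMb2 held ATTGG and not GCAAC, the 2 windows of H2-DMa held neither on the gene's strand, and the window of H2-Eb2 held both in the other order. In the windows of H2-DMb2 and H2-Eb2, ATTGG lies too near the upstream end for the pair to fit, so the search could not find it. Only exact letters were searched, and the H2-DMb1 window reads gtaac at a spacing of 28 bases before ATTGG. The search therefore does not show that these promoters lack an X box. The windows of H2-Aa and H2-Eb1 are shown because both are chains of the rule, that of H2-Ob because it held the pair although the gene was too low to be tested, and those of H2-DMb1 and H2-DMb2 because both genes differed between the populations. They read 5′ to 3′ on the gene's strand, with the paired letters, or ATTGG alone, in capitals.
H2-Aa, chr17:34287824-34287933, minus strand: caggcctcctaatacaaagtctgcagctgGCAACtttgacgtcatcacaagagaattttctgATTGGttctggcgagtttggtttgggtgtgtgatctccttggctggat
H2-Eb1, chr17:34305757-34305866, plus strand: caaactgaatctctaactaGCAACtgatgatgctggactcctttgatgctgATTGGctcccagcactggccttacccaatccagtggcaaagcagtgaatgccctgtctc
H2-Ob, chr17:34238795-34238904, plus strand: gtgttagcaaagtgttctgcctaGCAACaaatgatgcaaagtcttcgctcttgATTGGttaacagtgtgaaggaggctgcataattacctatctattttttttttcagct
H2-DMb1, chr17:34153081-34153190, plus strand: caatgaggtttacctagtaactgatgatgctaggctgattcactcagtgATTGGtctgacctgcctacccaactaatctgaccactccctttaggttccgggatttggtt
H2-DMb2, chr17:34145139-34145248, plus strand: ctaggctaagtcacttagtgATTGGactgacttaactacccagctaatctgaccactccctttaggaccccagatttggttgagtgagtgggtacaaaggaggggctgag

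Compared with the other gated cells of the same libraries, MHC-II-high C1q-low cells were higher in the loading machinery of class II, in class I presentation, costimulatory and interferon-response genes and in several genes known from dendritic cells, and lower in cell cycle genes, many monocyte and macrophage genes and most of the chemokines that changed. Of 7627 genes tested, 623 were higher (8.17%) and 572 were lower (7.5%) at an adjusted p of 0.05 (limma on library means, log2 after adding 0.1, with the 9 rule genes left out). Without library 4 these counts were 373 and 329, without library 2 the count of higher genes was 411, and without library 5 that of lower genes was 376. The median difference over all genes was -0.0087 on the log2 scale. The cells were chosen by their class II counts, so genes that follow class II from cell to cell had to differ by the choice itself.

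Of the 7 tested genes of class II presentation outside the rule, 5 were higher and none was lower, with a median difference of 1.61. Cd74, a proposed marker of these cells, is left out of this count and given with no test. It averaged 97.5, 101, 85.9 and 97.8 counts in the MHC-II-high C1q-low cells against 19.6, 6.11, 11.2 and 12.4 in the other gated cells. All 4 libraries were above every value of the comparison group. H2-DMb1, which encodes a chain of the peptide loader H2-DM, averaged 3.23, 3.71, 3.27 and 3.26 against 0.616, 0.207, 0.370 and 0.347. It was 2.90 ± 0.17 higher on the log2 scale (SE, adjusted p = 1.2e-05). H2-DMb2 was 2.44 ± 0.12 higher (adjusted p = 6.6e-06), and the 2 genes are near-identical copies, so the division of reads between them is uncertain. H2-DMa, the partner chain, averaged 4.65, 5.04, 4.55 and 4.81 against 1.84, 1.14, 1.53 and 1.56, a difference of 1.61 ± 0.11 (SE, adjusted p = 1.7e-05). Ciita averaged 0.778, 0.868, 0.723 and 0.715 against 0.135, 0.110, 0.146 and 0.137, and was 1.91 ± 0.09 higher (SE, adjusted p = 3.9e-06). The groups of these genes did not overlap in any library. H2-Oa and H2-Ob, the chains of the modulator H2-DO that is known from B cells, stayed under the filter with means of 0.0923 ± 0.0118 and 0.0525 ± 0.0214 in the MHC-II-high C1q-low cells (SD, n = 4).

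Class I presentation was higher as well, by smaller steps. Of 15 tested genes, 13 were higher and none was lower, and the median difference was 0.44. With no replicate block 8 were higher. In the narrower comparisons fewer were called: 4 of the 15 were higher than in the MHC-II-low C1q-low cells (median 0.52), 13 in a fit of only these 2 populations and 0 without library 2, 4 or 5. Against the MHC-II-high C1q-high cells none was called, and the median was -0.13, with 5 of the 15 differences above 0 (2 were higher without library 3; 3 were lower with a pseudocount of 1, 2 with no filter on low genes or with averaged log values and 1 with the filter at a mean of 0.5). H2-K1, a class I heavy chain, averaged 10.4, 8.90, 10.5 and 9.36 against 7.86, 6.31, 7.71 and 7.07, and differed by 0.43 ± 0.07 (SE, adjusted p = 0.0020). The lowest library of the MHC-II-high C1q-low cells was above the highest of the others. H2-T23, which encodes Qa-1, differed by 0.61 ± 0.07 (SE, adjusted p = 0.00034), and the immunoproteasome subunit Psmb8 by 0.50 ± 0.07 (SE, adjusted p = 0.0011). Psme2 of the proteasome activator differed by 0.51 ± 0.07 (SE, adjusted p = 0.00087). The class I chains are also close copies of each other, so their separate counts are less certain than their direction as a group.

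Of 11 tested costimulators and checkpoint ligands, 6 were higher and 1 was lower (median 0.35). Tnfsf9, the ligand of 4-1BB, reached the filter on low genes in the MHC-II-high C1q-low cells only, and without it 5 of 10 were higher (median 0.23), while with no filter 4 of 15 were (median 0.12). Cd83, a marker of activated antigen-presenting cells, averaged 1.35, 1.01, 1.4 and 1.46 against 0.711, 0.321, 0.588 and 0.686, and was 1.09 ± 0.09 higher (SE, adjusted p = 6.2e-05). Cd86, the CD28 ligand, averaged 1.95, 1.72, 1.57 and 1.83 against 1.19, 0.831, 0.995 and 0.937, and was 0.79 ± 0.08 higher (SE, adjusted p = 0.00021). Cd40, through which T cells license antigen-presenting cells, was 0.91 ± 0.12 higher (SE, adjusted p = 0.00064). The groups did not overlap for Cd83, Cd86 or Cd40. Tnfsf9 averaged 0.265 against 0.0745, and the adjusted p of its difference was 0.035 with no filter, the highest of its alternatives, which began at 0.00014 without library 2. Cd274, which encodes PD-L1, was not called (difference 0.11 ± 0.12, adjusted p = 0.61), and its sign turned when at least 2 Csf1r counts were required (-0.02). Without library 3 it was called higher, at 0.30 ± 0.07 (SE, adjusted p = 0.025, the lowest of its alternatives, which reached 0.98 with a class II limit of 40). Against the MHC-II-low C1q-low cells 2 of the 11 costimulators and ligands were higher and none was lower (median 0.23, or 0.13 without Tnfsf9). Over the alternatives of that comparison 0 to 4 were higher and up to 1 was lower. Against the MHC-II-high C1q-high cells 4 were higher and none was lower (median 0.39), where 12.3% of all genes were higher and 7.89% were lower. Without Tnfsf9 3 of 10 were higher and none was lower (median 0.38). With no filter 2 of 15 were higher and 1 was lower (median 0.33). Over the alternatives of this comparison 1 to 6 were higher and up to 1 was lower.

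Among 23 tested genes of the interferon-γ response, with Cxcl9 left out, 11 were higher and 1 was lower (median 0.26), and among 21 of the type I interferon response 13 were higher and none was lower (median 0.31). The higher genes numbered 4 and 6 with no replicate block and 5 and 7 with no filter on low genes, 7 of the interferon-γ response without library 4 and 6 of the type I response without library 2. Ly6a, which encodes Sca-1, averaged 1.10, 0.515, 1.12 and 1.14 against 0.353, 0.0562, 0.209 and 0.166. It was 1.89 ± 0.12 higher (SE, adjusted p = 1.3e-05), with library 3 the lowest in both groups. Fgl2 was 0.72 ± 0.08 higher (SE, adjusted p = 0.00034), and Nos2, the inducible nitric oxide synthase, differed by -0.82, with means of 0.637 ± 0.283 and 1.15 ± 0.217 (SD, n = 4, adjusted p = 0.014). Of the type I response, Ifi205 was 1.05 ± 0.08 higher (SE, adjusted p = 3.5e-05), Ifit2 0.85 ± 0.07 higher (SE, adjusted p = 6e-05) and the transcription factor Irf7 0.59 ± 0.09 higher (SE, adjusted p = 0.0015). Cxcl10 is an example of a gene that moved with the library as well as the group: it averaged 3.75, 0.904, 4.63 and 3.86 against 2.38, 0.566, 3.0 and 3.4, higher in 4 of 4 libraries while library 3 was low in both groups (difference 0.50 ± 0.09, adjusted p = 0.0041). In the narrower comparisons fewer of the listed genes were called. Against the MHC-II-low C1q-low cells 2 interferon-γ and 1 type I response genes were higher and none was lower (medians 0.13 and 0.26). Over the alternatives 1 to 10 and 0 to 12 were higher, and up to 1 interferon-γ response gene was lower. Against the MHC-II-high C1q-high cells 4 and 6 were higher and 2 and 1 were lower (medians 0.39 and 0.66). Over the alternatives 2 to 7 of each list were higher, and 1 to 3 and up to 1 were lower. Of all genes tested, 12.3% were higher and 7.89% were lower in this comparison. Against the MHC-II-low C1q-low cells 1.17% and 0.393% were.

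Among dendritic cell genes, those that define the lineage were counted in few cells. Flt3, Zbtb46, Clec9a and Xcr1, but not Fscn1, were counted more often in the MHC-II-high C1q-low than in the MHC-II-low C1q-low cells. Flt3 was counted in 3.17% of the MHC-II-high C1q-low, 0.912% of the MHC-II-low C1q-low and 0 of the 257 MHC-II-high C1q-high cells. The 0 allows detection in up to 1.17% of such cells and does not bound how many express Flt3. The shares in the same order were 1.27, 0.137 and 0.389% for Zbtb46, 0.905, 0.0912 and 2.72% for Clec9a and 0.814, 0.0456 and 1.56% for Xcr1. For Fscn1 they were 0.452, 0.547 and 0.778%. The cells with high S100a8 and S100a9, which should lack these genes, held Fscn1 in 0.378% and the others in 0.119 to 0.258%. These shares were not tested. Of the 9 listed genes that passed the filter, 7 were higher and 1 was lower (median 0.91). The filter kept a gene with a mean of 0.1 in any population, and Dpp4 and Cd209a reached it in the MHC-II-high C1q-low cells only. Without these 2 genes 5 of 7 were higher and 1 was lower (median 0.72), and with no filter 9 of 20 were higher and none was lower (median 0.39). Of the 623 genes called higher, 29 (4.65%), among them Ccr7, Dpp4, Tnfsf9 and Cd209a, reached it in the MHC-II-high C1q-low cells only, and 19 of the 29 were called with no filter. At a filter of 0.5 only 4 dendritic cell genes were tested, and 2 were higher. Itgax, which encodes CD11c, averaged 1.05, 0.772, 0.883 and 0.589 against 0.527, 0.180, 0.384 and 0.293, and was 1.09 ± 0.12 higher (SE, adjusted p = 0.00037). Dpp4, which encodes CD26, averaged 0.165, 0.294, 0.188 and 0.251 against 0.0385, 0.0382, 0.0325 and 0.0305. With no filter the difference was 1.25 ± 0.11 (SE, adjusted p = 0.013), and over the alternatives the adjusted p ran from 1.1e-05 with a class II limit of 40 to 0.014 with averaged log values. Cd209a, a C-type lectin, was not called with no filter (difference 0.91 ± 0.19). Tnip3 was 1.31 ± 0.08 higher (SE, adjusted p = 1.2e-05), and Mgl2, a C-type lectin of type 2 conventional dendritic cells and macrophages, 1.05 ± 0.10 higher (SE, adjusted p = 0.00013). Klrk1, which encodes the receptor NKG2D and was listed as an NK cell gene, was 1.22 ± 0.08 higher (SE, adjusted p = 1.6e-05) and was counted in 260 cells (23.5%), against 5.38% of MHC-II-low C1q-low and 33.1% of MHC-II-high C1q-high cells. Itgax was likewise counted in 48.2% of the MHC-II-high C1q-low and 70.4% of the MHC-II-high C1q-high cells, and Mgl2 in 6.33 and 14.8%. Summed over the list of 20 dendritic cell markers, libraries held 3.34 to 4.25 counts per cell in the MHC-II-high C1q-low cells and 2.49 to 2.78 in the other gated cells. The same sum was 4.55 to 5.32 in the MHC-II-high C1q-high cells, above every library of the MHC-II-high C1q-low cells, and 3.53 to 3.78 in the cells with high S100a8 and S100a9.

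Ccr7, the receptor that guides antigen-presenting cells to lymph nodes, was among the 10 largest rises. It averaged 0.675, 0.191, 0.766 and 0.570 in the MHC-II-high C1q-low cells against 0.0394, 0.0247, 0.0469 and 0.0119, and was 2.21 ± 0.19 higher (SE, adjusted p = 7.1e-05). As Ccr7 reached the filter in the MHC-II-high C1q-low cells only, it is also given with no filter: over the alternatives the adjusted p ran from 1.6e-07 without library 3 to 0.024 with no filter. Library 3 was well under the other libraries in the first group and still above every value of the second. The signal came from few cells: Ccr7 was counted in 69 of the 1105 cells (6.24%), against 1.05% of MHC-II-low C1q-low cells and 0.815% of the cells with high S100a8 and S100a9, which should lack it and had medians of 7546 to 7571 corrected counts. Of the 6 tested genes of mature dendritic cells, 4 were higher and 1 was lower, among them Tbc1d4 at 1.01 ± 0.08 (SE, adjusted p = 3.3e-05), and 2 were higher when at least 2 Csf1r counts were required. Without Ccr7 3 of 5 were higher and 1 was lower, and with no filter 3 of 13 were higher and 1 was lower. The 13 markers of this state summed to 3.05 to 4.26 counts per cell in the MHC-II-high C1q-low cells and 2.50 to 3.69 in the other gated cells, with overlap. The sum was higher in both C1q-high populations, at 5.32 to 6.27 in the MHC-II-high and 6.20 to 8.31 in the MHC-II-low cells. Other defining genes of that state were scarce, with Fscn1 in 0.452% and Ccl22 in 1.72% of the cells.

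Timd4, a phosphatidylserine receptor known from resident macrophages, was proposed as a marker and is given with no test. It averaged 0.498, 0.0735, 0.642 and 0.407 in the MHC-II-high C1q-low cells and 0.0466, 0.00225, 0.0993 and 0.0153 in the other gated cells. It was counted in 45, 5, 27 and 17 MHC-II-high C1q-low cells, which is 8.51% of them. The share was 9.34% in MHC-II-high C1q-high cells, 0.319% in MHC-II-low C1q-low cells and 0.537% in the cells with high S100a8 and S100a9. Of the 94 cells with Timd4, 29 also held Ccr7 (30.9%), where 6.24% of all MHC-II-high C1q-low cells held Ccr7, and 42 held Cxcl9 (44.7%), where 23.5% of all did.

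The cells with Timd4 were set beside the 1011 without it after their values had been seen, as a description with no test. Ccr7 and Ly6a were concentrated in them, except in library 3. Ccr7 averaged 5.64, 0, 5.22 and 6.88 counts in cells with Timd4 and 0.0844, 0.198, 0.294 and 0.134 in those without. Ly6a averaged 3.64, 0, 4.93 and 7.24 against 0.794, 0.534, 0.718 and 0.715. Library 3 gave only 5 cells with Timd4 and went the other way for Ccr7 and Ly6a. Ccnd2, which encodes cyclin D2, averaged 4.46 over all cells with Timd4 and 0.432 over those without, Dpp4 1.06 and 0.128, and Kit, the stem cell factor receptor, 0.798 and 0.0287. Macrophage and monocyte genes ran the other way: Lyz2 averaged 12 and 49.2, Apoe 2.47 and 22.5, Ccr2 1.70 and 5.71, and Ccl24, an eosinophil chemoattractant, 0.138 and 5.29. Plac8 was alike in both, at 16.8 and 17.6. Flt3 averaged 0.191 and 0.0237 and Zbtb46 0.0957 and 0.00692, so that these lineage genes of dendritic cells were low in both but higher beside Timd4. Cd79a averaged 0.0745 and 0.0870, and the mean corrected totals were 8506 and 8397.

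**Figure D2:**
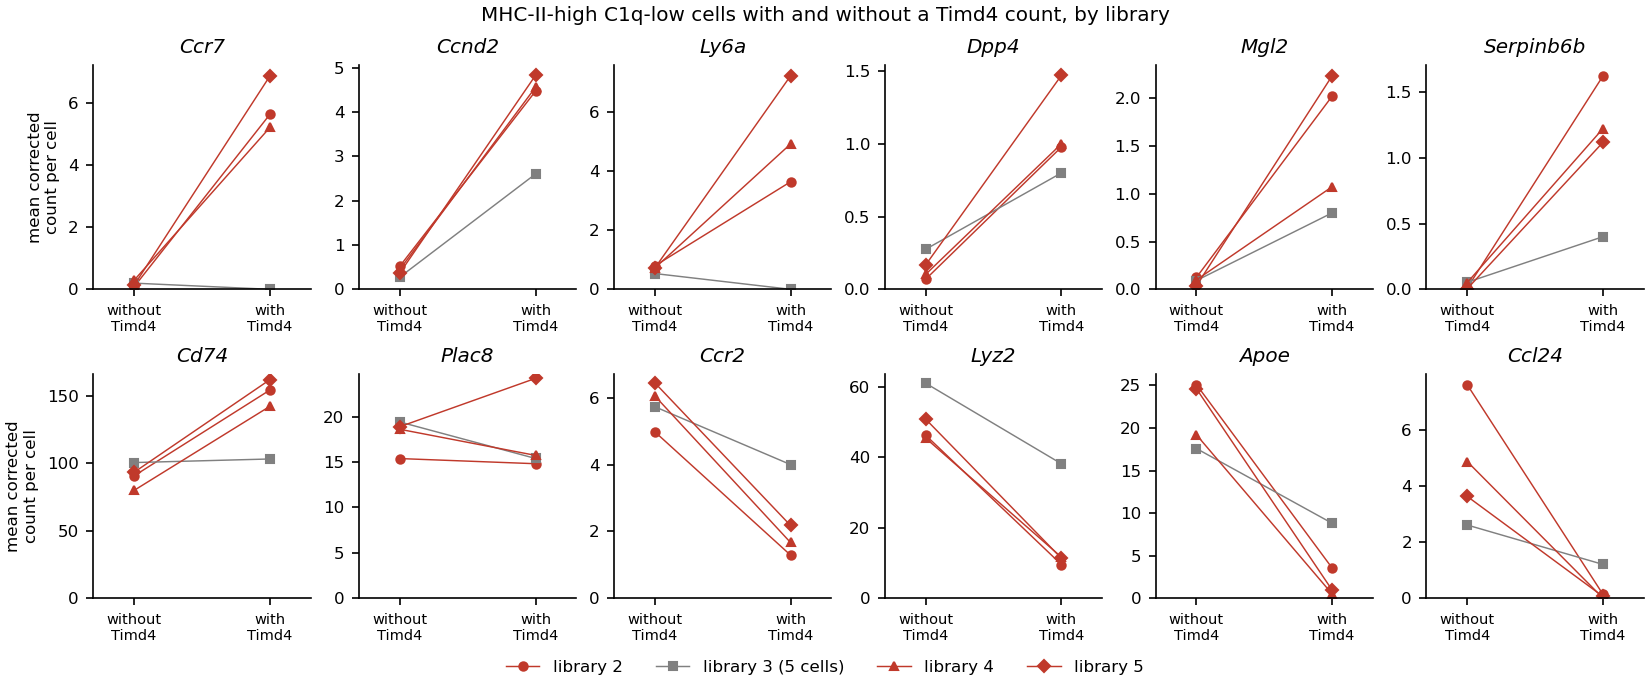
Mean corrected counts per cell of 12 genes in MHC-II-high C1q-low cells with and without a Timd4 count, with 1 point and line per library and library 3, which had 5 cells with Timd4, in grey. Ccr7, Ccnd2 and Dpp4 sit higher with Timd4 in libraries 2, 4 and 5, and Lyz2, Ccl24 and Apoe sit lower.

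Monocyte genes were more often lower than higher. Of 19 tested, 3 were higher (Ly6i, Treml4 and Plac8) and 10 were lower (median -0.39). Hp (haptoglobin) averaged 1.27, 2.13, 1.70 and 1.75 against 2.66, 5.28, 3.82 and 4.73, a difference of -1.20 ± 0.08 (SE, adjusted p = 1.6e-05). F13a1 (coagulation factor XIII) averaged 1.63, 1.3, 1.41 and 1.88 against 2.87, 3.44, 3.18 and 3.45, a difference of -1.02 ± 0.10 (SE, adjusted p = 0.00011). Neither gene overlapped between the groups. Chil3 differed by -1.3 ± 0.14 (SE, adjusted p = 0.00034), Thbs1 (thrombospondin 1) by -1.04 ± 0.12 (SE, adjusted p = 0.00034) and Vcan (versican) by -0.93 ± 0.13 (SE, adjusted p = 0.00091). Ccr2, the receptor that brings monocytes into tissue, was not among them: it averaged 4.59, 5.67, 5.64 and 6.17 against 3.67, 5.77, 5.13 and 5.83, and the difference of 0.13 ± 0.08 did not pass (adjusted p = 0.31), except with averaged log values (adjusted p = 0.014, against up to 0.77 with an S100a8 and S100a9 limit of 100). It was counted in 939 of the 1105 cells (85.0%). Ly6c2 was lower by a smaller step (-0.35 ± 0.07, adjusted p = 0.0080).

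Of 23 tested macrophage markers, with Timd4 left out, 1 was higher and 9 were lower (median -0.23). With no filter on low genes 3 were lower, and with averaged log values 2 were. The higher one, Aif1, which encodes IBA1, averaged 7.69, 5.89, 6.6 and 5.75 against 5.08, 2.33, 3.56 and 3.16, and was 0.90 ± 0.10 higher (SE, adjusted p = 0.00040). The groups did not overlap. Trem2, a lipid-sensing receptor of TAM, differed by -0.44 (adjusted p = 0.0021), with means of 0.672 ± 0.0809 and 0.943 ± 0.0893 (SD, n = 4). Ms4a7 differed by -0.72 (adjusted p = 0.0046) and its groups overlapped. Pf4 differed by -1.38 (adjusted p = 0.0024) and averaged 2.11, 2.04, 1.39 and 0.430 against 7.09, 2.66, 3.49 and 2.33, with no overlap. Of 11 tested neutrophil markers 6 were lower and none was higher (median -0.59; 3 lower with no replicate block), among them Wfdc21 with means of 0.625 ± 0.165 and 2.28 ± 0.989 (SD, n = 4). The summed neutrophil markers were 15.9 to 20.6 in the MHC-II-high C1q-low cells and 20.4 to 34.5 in the other gated cells, and their part in these results was not tested. Against the MHC-II-low C1q-low cells alone, 1 of the 23 macrophage markers was higher and none was lower (median -0.05). Over the alternatives of that comparison 1 to 6 were higher and 0 to 6 were lower.

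Arg1 (arginase 1), a gene of suppressive TAM, was lower in the MHC-II-high C1q-low cells of every library, at 1.47, 1.79, 1.89 and 1.34 against 4.75, 4.41, 4.19 and 1.82. The groups overlapped through library 5, where the comparison cells were low. The difference was -1.10 ± 0.15 (SE, adjusted p = 0.0011). Of the 23 tested genes of Arg1, hypoxia and glycolysis, 1 was higher and 5 were lower (median -0.16), with Bnip3 at -0.45 ± 0.09 (SE, adjusted p = 0.0085). The lower genes numbered 2 without library 3, 3 without library 4 or 5 and 0 with no filter on low genes. Of 15 lipid handling genes 1 was higher and 7 were lower (median -0.31), with lipoprotein lipase, Lpl, at 0.0642 ± 0.0292 against 0.297 ± 0.155 (SD, n = 4, adjusted p = 0.00035), and 4 were lower without library 3 or 4 and 2 with no filter. Against the MHC-II-low C1q-low cells alone, 1 lipid handling gene was higher and none was lower (median -0.26). Over the alternatives of that comparison 0 to 2 were higher and 0 to 8 were lower. Of 19 genes of lysosomes and cathepsins 2 were higher and 5 were lower (median -0.13). Ctsl averaged 6.76, 5.40, 6.24 and 6.51 against 9.92, 9.91, 9.45 and 8.19 (difference -0.58 ± 0.09, adjusted p = 0.0019), and Atp6v0d2, a subunit of the proton pump, differed by -1.14 ± 0.08 (SE, adjusted p = 1.6e-05). Cst3 (cystatin C), a cathepsin inhibitor, went the other way at 0.46 ± 0.08 (SE, adjusted p = 0.0044).

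Chemokines moved in both directions. Of 18 tested, with Cxcl9 left out, 3 were higher and 10 were lower (median -0.40), and 5 were lower with no replicate block and 3 with no filter. Cxcl10, a ligand of CXCR3 on effector T cells, was 1 of the higher ones. Cxcl9, another ligand of CXCR3 and a proposed marker given with no test, averaged 3.13, 2.06, 3.13 and 1.77 against 1.71, 0.519, 1.22 and 1.65. Cxcl16, the ligand of CXCR6, averaged 3.28, 2.26, 2.58 and 2.27 against 1.96, 0.712, 1.05 and 0.929, and was 1.17 ± 0.11 higher (SE, adjusted p = 0.00015). The monocyte attractant Ccl2 averaged 0.757, 0.618, 0.713 and 0.460 against 1.29, 1.66, 1.77 and 1.21, and differed by -1.10 ± 0.10 (SE, adjusted p = 8.7e-05). Ccl8 differed by -2.52 ± 0.20 (SE, adjusted p = 4.9e-05). Within the comparison group its level was uneven, and the MHC-II-low C1q-high cells averaged 6.97, 12.6, 18.2 and 7.46. The MHC-II-high C1q-low cells averaged 0.0965 ± 0.0442 and the MHC-II-low C1q-low cells 0.111 ± 0.0666 (SD, n = 4). Against the MHC-II-low C1q-low cells alone, 1 of the 18 chemokines was higher and none was lower (median -0.39). Against the MHC-II-high C1q-high cells 1 was higher and 5 were lower (median 0.25). Over the alternatives of these comparisons 1 to 4 and 1 to 5 were higher, and 0 to 8 and 2 to 6 were lower.

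Of 15 cytokines, 4 were higher (2 without library 2 or 5 and 1 without library 4) and 3 were lower (median 0.10), with Tgfbi at 0.33 ± 0.07 (SE, adjusted p = 0.0088) and Il15 at -0.60 ± 0.10 (SE, adjusted p = 0.0027). Of 12 chemokine and chemoattractant receptors, 3 were higher and 3 were lower (median -0.05; 2 and 3 without Ccr7, and 3 and 1 with no filter), and apart from Ccr7 the changes were under 1 on the log2 scale, as for Cxcr4 at 0.42 ± 0.07 (SE, adjusted p = 0.0041). Of 20 Fc and pattern recognition receptors, 6 were higher and 4 were lower (median 0.05), against 2 and 2 without library 2, 1 and 2 without library 4 and 3 and 2 without library 5. Clec4n, which encodes the fungal receptor Dectin-2, averaged 4.28, 3.18, 3.48 and 3.21 against 2.51, 1.3, 2.08 and 1.72, and was 0.89 ± 0.09 higher (SE, adjusted p = 0.00022). Of 29 myeloid transcription factors, 7 were higher and none was lower (median 0.15). With no replicate block 4 were higher, and with a class II limit of 40, 7 were higher and 4 were lower (1 lower without library 2). Runx3, a Runt-family factor, stood at 4.6 ± 0.469 against 3.11 ± 0.356 (SD, n = 4, adjusted p = 0.00066), and Nr4a2, an orphan nuclear receptor, differed by 0.70 ± 0.08 (SE, adjusted p = 0.00050). Of 10 complement genes outside C1q, 1 was higher and 3 were lower (median -0.12), with C3 at -0.53 ± 0.10 (SE, adjusted p = 0.0067).

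Most cell cycle genes were lower. Of 16 tested, 14 were lower and none was higher (median -0.69), and with averaged log values 8 were lower and 1 was higher. Stmn1 averaged 0.160, 0.154, 0.117 and 0.0760 against 0.589, 0.674, 0.484 and 0.569, and differed by -1.59 ± 0.09 (SE, adjusted p = 1.2e-05). Mki67, which encodes Ki-67, averaged 0.137, 0.140, 0.145 and 0.0722 against 0.292, 0.600, 0.399 and 0.476 (difference -1.26 ± 0.14, adjusted p = 0.00038). No library of the MHC-II-high C1q-low cells reached the lowest value of the others for either gene.

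Some markers of cultured B-MF, taken from the study's text or marker table, were also followed. In the MHC-II-high C1q-low cells 2 of these 8 genes were higher (Clec4n and Id3) and 2 were lower (Pf4 and Slc40a1), with a median difference of -0.17. Without library 5, Slc40a1 was not called (-0.37, adjusted p = 0.074). Of the 4 B-cell genes that passed the filter, only Igkc, the κ light chain, was called. It averaged 0.00236, 0.309, 0.223 and 0.567 against 0, 0.0180, 0.0686 and 0.0390, so library 2 held almost none in either group (difference 1.26 ± 0.28, adjusted p = 0.013). The call was lost under 6 of the 14 alternatives that could be run for Igkc, where the adjusted p ran from 0.00032 without library 2 to 0.22 with at least 2 Csf1r counts, and was 0.15 with no filter on low genes and 0.10 with no replicate block. Igkc was counted in 30 cells (2.71%) and Cd79a in 15 (1.36%), where 1.01% and 0.596% of the cells with high S100a8 and S100a9 held them. Of the 8 B-MF genes, 1 was higher and none was lower against the MHC-II-low C1q-low cells (median -0.19). Against the MHC-II-high C1q-high cells 4 were higher and none was lower (median 0.27), where 12.3% of all genes were higher and 7.89% were lower. Over the alternatives of these comparisons 0 to 3 and 1 to 4 were higher, and up to 3 and 2 were lower.

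**Figure D3:**
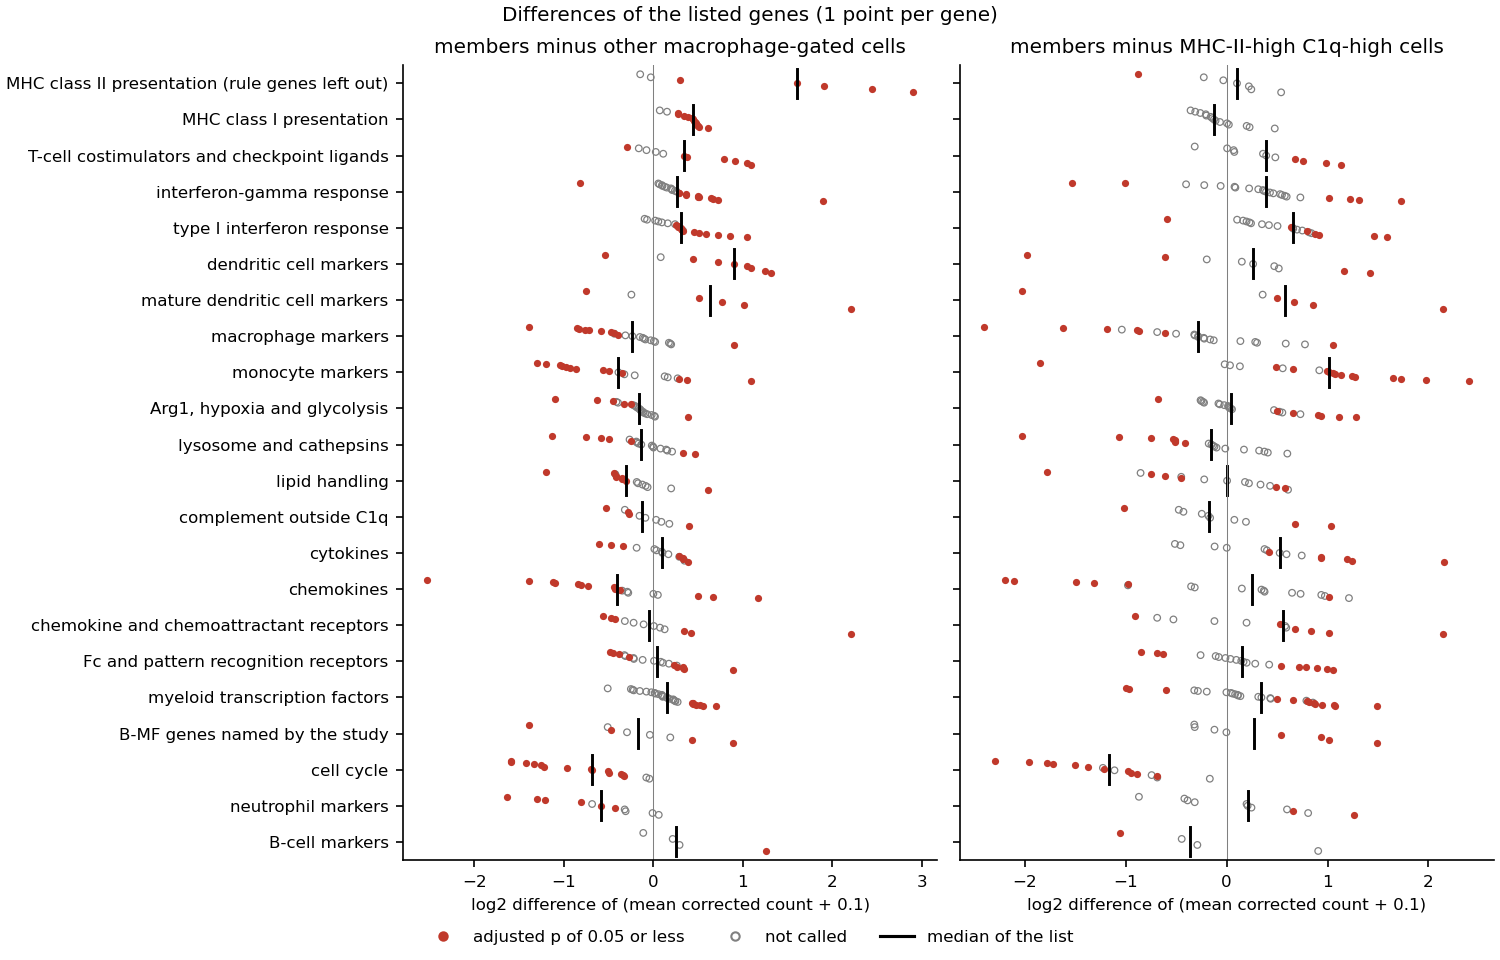
Log2 differences of single listed genes, MHC-II-high C1q-low cells minus the other gated cells (left) and minus MHC-II-high C1q-high cells (right), by gene list and without the 3 proposed markers, with called genes in red and a bar at each list's median. Class II genes lie highest on the left, with a median of 1.61, and cell cycle genes lie lowest on the left and right, with medians of -0.69 and -1.16.

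Genes outside the lists filled part of the extremes. Among the 10 largest rises with the same sign in all libraries were Spon1 (F-spondin, a matrix protein), which averaged 1.07, 1.47, 0.915 and 0.905 against 0.325, 0.153, 0.170 and 0.198 (difference 1.94 ± 0.15, adjusted p = 4e-05), Ccnd2 at 1.55 ± 0.10 (SE, adjusted p = 1.4e-05) and the receptor gene Gpr171 at 1.43 ± 0.08 (SE, adjusted p = 1.2e-05). Among the 10 largest falls were Slpi, a secreted protease inhibitor, which averaged 4.11, 1.46, 2.44 and 5.70 against 12.6, 11.6, 10.5 and 11.6 (difference -1.90 ± 0.23, adjusted p = 0.00053), and Ctsk (cathepsin K), with 0.599 ± 0.509 against 2.59 ± 0.744 (SD, n = 4, adjusted p = 0.0012). Mgst1, a microsomal glutathione transferase, differed by -1.60 ± 0.10 (SE, adjusted p = 1.4e-05).

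Within the C1q-low gated cells the genes were followed over 8 ranges of the summed class II count, from 0 to 160 or more, with at least 24 cells per library in each. This is a description, since the ranges are made from the rule genes. Cd74 went up in each step, from 0.907 counts per cell at a sum of 0 to 170 at 160 or more, and H2-DMb1 went from 0.0326 to 6.20 and Ciita from 0.0426 to 1.25. Timd4 and Ccr7 were concentrated at the top. Timd4 averaged 0.0117 at 20 to 39, 0.0188 at 40 to 79, 0.388 at 80 to 159 and 1.37 at 160 or more, and Ccr7 averaged 0.00844, 0.0350, 0.632 and 1.62. At 5 to 9 and 10 to 19 Ccr7 averaged 0.137 and 0.150, mostly from library 2 (0.477) in the first of these ranges and library 4 (0.435) in the second. Library 3 was the exception for Timd4, at 0.0976 in the highest range where the other libraries held 1.82, 2.13 and 1.43, and library 4 also held 0.797 at 5 to 9. In the highest range 26.5% of the cells held Timd4 and 16.7% held Ccr7. Flt3 reached 0.114 there, in 8.98% of the cells. Thbs1 went from 9.43 at 0 to 0.997 at 160 or more, Vcan from 4.11 to 0.665 and Slpi from 15.9 to 0.252. Arg1 was not ordered in this way over the low ranges, at 3.28 at 0 and 5.90 at 1 to 4, but was 0.269 in the highest. Ccr2 lay between 4.88 and 6.21 in all 8 ranges, and Plac8 between 15.5 and 19.1.

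**Figure D4:**
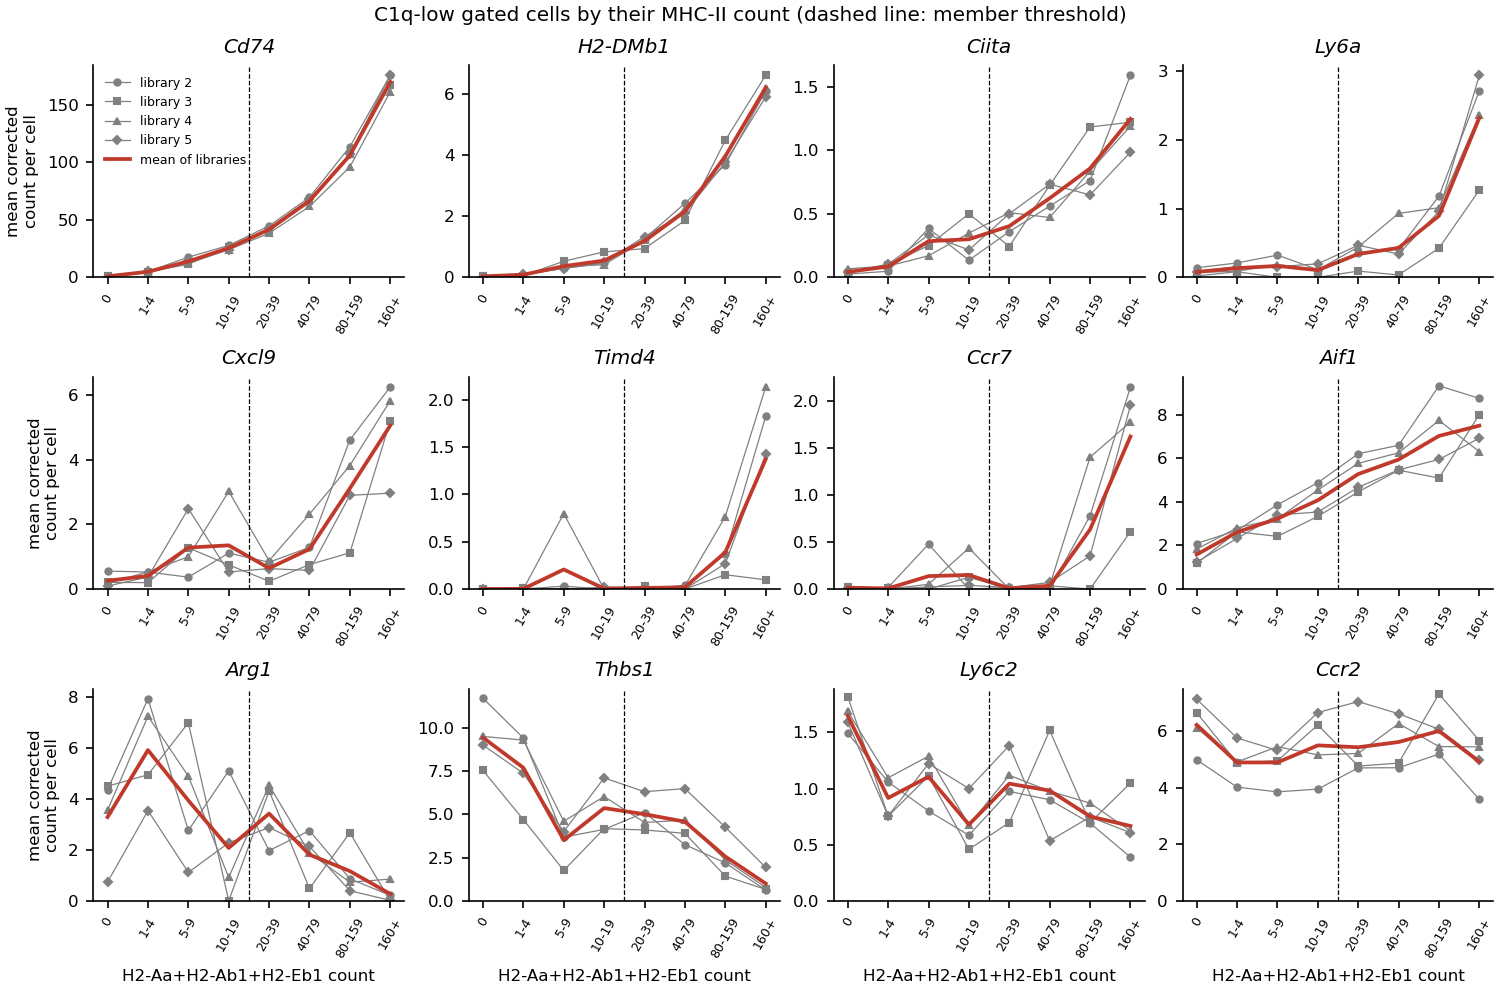
Mean corrected counts per cell of 12 genes against the summed class II count of C1q-low gated cells in 8 ranges, with 1 thin line per library and a thick line for the mean of the 4 libraries. The dashed line marks the limit of 20. Cd74 climbs from 0.907 to 170, the means of Timd4 and Ccr7 are highest in the 2 highest ranges, Thbs1 is lowest in the highest range, and Ccr2 lies between 4.88 and 6.21.

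Compared with the MHC-II-low C1q-low cells, which share the C1q limit and differ in class II, MHC-II-high C1q-low cells were higher in class II machinery, Ly6a, Cxcl16, Itgax and Aif1, and lower in Hp, Chil3 and Mgst1. The 2 populations were split by their class II counts, so class II machinery and other genes that follow class II had to differ by the choice itself. In a fit of all 4 populations 89 genes were higher (1.17%) and 30 were lower (0.393%). In a fit of only these 2 populations the counts were 849 and 795, so the counts depend on the populations that share the estimate of spread. Leaving out library 2 gave 25 and 8 genes, leaving out library 4 gave 33 and 13, and leaving out library 5 gave 37 and 12. At least 2 markers of another cell type were counted in 8.42% of the MHC-II-high C1q-low and 3.79% of the MHC-II-low C1q-low cells, and without such cells 49 genes were higher and 16 were lower. B-cell markers summed to 0.259 to 1.93 and 0.179 to 0.333 counts per cell by library, and those of T and NK cells to 0.412 to 0.662 and 0.182 to 0.381. H2-DMb1 averaged 3.37 ± 0.226 against 0.124 ± 0.00633 (SD, n = 4), a log2 difference of 3.95 ± 0.16 (SE, adjusted p = 3.9e-09). Ly6a differed by 2.36 ± 0.28 (SE, adjusted p = 0.00051), Cxcl16 by 2.02 ± 0.17 (SE, adjusted p = 1.4e-05) and Itgax by 1.61 ± 0.17 (SE, adjusted p = 0.00016). Aif1 averaged 6.48 ± 0.889 against 2.26 ± 0.461 (SD, n = 4, adjusted p = 1.5e-05). Of 19 monocyte genes 5 were lower and none was higher (median -0.49), among them Chil3 at -1.5 ± 0.19 (SE, adjusted p = 0.00061) and Hp at -1.42 ± 0.17 (SE, adjusted p = 0.00047). The lower ones numbered 2 without library 2, 3 without library 4 or 5 and 11 in the fit of only these 2 populations, where 2 were higher. Of 16 cell cycle genes Ube2c was lower and none was higher (median -0.62). In the fit of only these 2 populations 10 were lower and 1 was higher, and without library 4 or 5 none was lower. Arg1, at 1.62 ± 0.261 against 4.09 ± 1.69 (SD, n = 4), was not called (difference -1.17 ± 0.55, adjusted p = 0.52), but was in the fit of only these 2 populations (adjusted p = 0.0010; 0.17 to 1.0 under the other alternatives).

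Compared with the MHC-II-high C1q-high cells, which share the class II limit and differ in C1q, MHC-II-high C1q-low cells were higher in monocyte genes and interleukin-1, and lower in genes of mature tissue macrophages, lysosomes and the cell cycle. The 2 populations were split by their C1q counts, so genes that follow C1q from cell to cell had to differ by the choice itself. Of 7627 genes 938 were higher (12.3%) and 602 were lower (7.89%), against 307 and 152 in a fit of only these 2 populations, and the median over all genes was 0.067. Without library 2 the counts were 319 and 210, without library 4 they were 479 and 280, and without library 5 they were 508 and 264. Without library 3, which had 8 C1q-high cells, they were 1287 and 795. Class II machinery did not stand out: of 7 genes none was higher and Lgmn was lower, and H2-DMb1 averaged 3.37 ± 0.226 and 3.48 ± 0.616 (SD, n = 4). Over the alternatives 0 to 2 of the class II genes were higher, with 2 for averaged log values, and 1 to 2 were lower.

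Of 19 monocyte genes, 13 were higher in the MHC-II-high C1q-low cells than in the C1q-high cells and 1 was lower (median 1.02), with 6 higher without library 2 and 8 without library 5. Vcan averaged 1.69, 0.963, 1.57 and 1.70 against 0.333, 0.375, 0.05 and 0.136 (difference 2.41 ± 0.34, adjusted p = 0.00063). Plac8 averaged 15.3, 19.3, 18.3 and 19.2 against 5.44, 8.12, 4.50 and 4.18 (difference 1.72 ± 0.31, adjusted p = 0.0021), and Hp differed by 1.65 ± 0.17 (SE, adjusted p = 0.00012). The groups did not overlap for any of these genes, and the MHC-II-high C1q-low cells lay between the MHC-II-low C1q-low cells and the MHC-II-high C1q-high cells in Hp and Vcan. Il1b, an inflammatory cytokine, averaged 63.3, 39.4, 54.9 and 60.4 against 25.5, 23.4, 17.3 and 25.5 (difference 1.24 ± 0.22, adjusted p = 0.0020), and Il1a differed by 2.16 ± 0.43 (SE, adjusted p = 0.0039). Of 15 cytokines 6 were higher and none was lower, and 3 were higher without library 2, 4 or 5. Ccr7 averaged 0.0432 ± 0.0557 in the C1q-high cells (SD, n = 4) and 0.551 ± 0.253 in the C1q-low cells, the only population in which it reached the filter. With no filter it was 2.14 ± 0.34 higher (SE, adjusted p = 0.0037), and over the alternatives the adjusted p ran from 2.6e-06 without library 3 to 0.034 in the fit of only these 2 populations.

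Of 23 macrophage markers, 1 was higher than in the C1q-high cells and 6 were lower (median -0.28), or 11 lower without library 3. Ms4a7 averaged 1.59, 0.757, 0.635 and 0.627 against 4.65, 4.62, 7.0 and 3.73 (difference -2.41 ± 0.26, adjusted p = 0.00012), and the receptor tyrosine kinase Axl differed by -1.63 ± 0.17 (SE, adjusted p = 0.00012). Adgre1 differed by -1.18 ± 0.15 (SE, adjusted p = 0.00040). Of 19 genes of lysosomes and cathepsins 8 were lower and none was higher (3 lower without library 2, 4 or 5), with Cd63 at 1.08 ± 0.284 against 4.6 ± 0.332 (SD, n = 4, adjusted p = 1.2e-05). Over the alternatives 2 to 9 of the lysosome and cathepsin genes were lower and 0 to 1 were higher. Cadm1, an adhesion molecule, differed by -2.43 ± 0.16 (SE, adjusted p = 3.8e-06), and the tetraspanin Cd81 differed by -2.0 ± 0.21 (SE, adjusted p = 0.00012). Of 16 cell cycle genes 11 were lower and none was higher (median -1.16), with Stmn1 at -2.30 ± 0.31 (SE, adjusted p = 0.00057), and 7 were lower without library 2 and 6 without library 5. Cxcl16 was lower than in the C1q-high cells (-0.98 ± 0.17, adjusted p = 0.0017), and Cxcl9, given with no test, averaged 2.52 ± 0.713 against 8.04 ± 3.38 (SD, n = 4). At least 2 markers of another cell type were counted in 19.1% of the C1q-high cells and 8.42% of the C1q-low cells. Without such cells 834 genes were higher and 467 were lower.

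**Figure D5:**
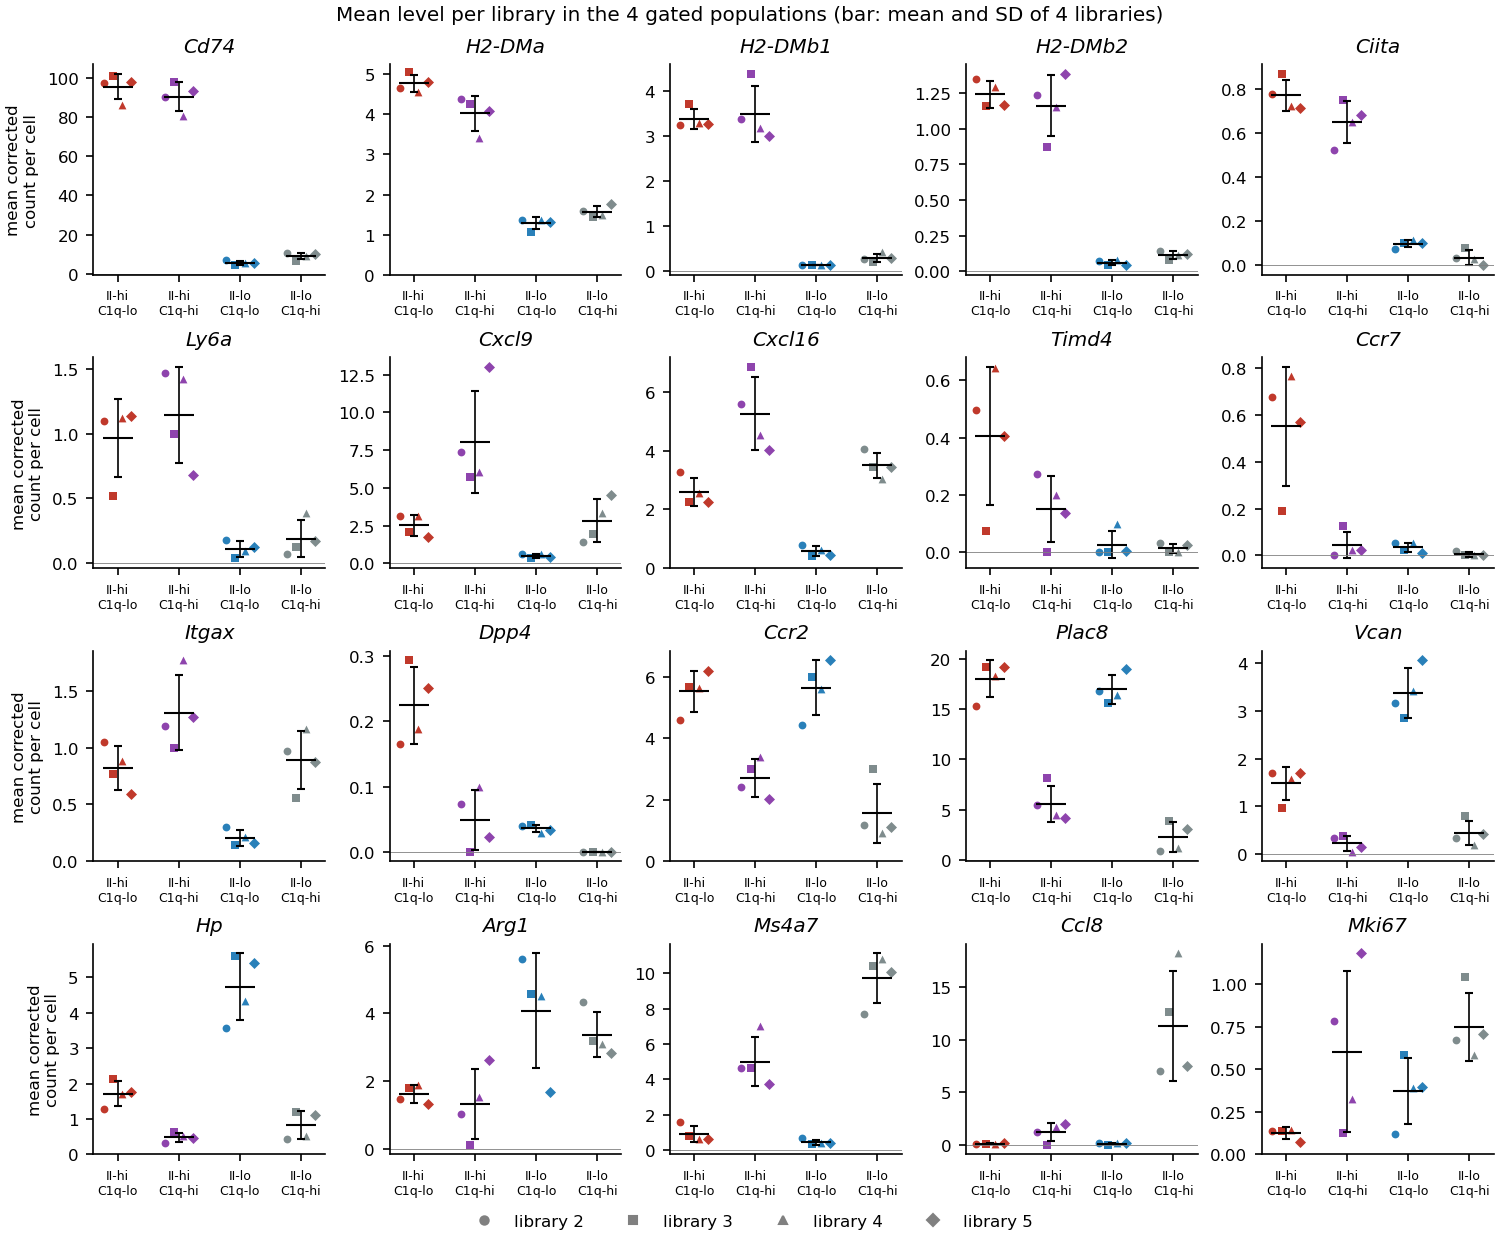
Mean corrected counts per cell of 20 genes in the 4 gated populations, with 1 point per library and bars for the mean ± SD of the 4 libraries. H2-DMb1 is about as high in MHC-II-high C1q-low as in MHC-II-high C1q-high cells (3.37 and 3.48), Ccr7 and Dpp4 are highest in the MHC-II-high C1q-low cells, and Hp and Vcan lie between the MHC-II-low C1q-low and the MHC-II-high C1q-high cells.

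The same rule was applied to the cultured macrophages, which were grown in medium conditioned by 4T1.2 cells. It found few cells: 18 and 9 in the 2 B-MF libraries (0.345 and 0.170% of gated cells) and 32 and 38 in the 2 Mo-MF libraries (0.734 and 0.775%). Cultured cells had 2.39 times the corrected counts of tumor cells. With the class II and C1q limits raised by that factor, and the other limits unchanged, 20, 6, 19 and 21 cells were found. Several of these sets hold fewer than 20 cells, so only values are given. Cd74 averaged 161 and 129 counts in such cells of B-MF and 61.5 and 54.3 in those of Mo-MF, against 0.524 to 0.635 in the MHC-II-low C1q-low cells of the 4 libraries. H2-DMb1 averaged 2.28, 2.33, 1.5 and 0.921, and Ciita 1.28, 1.0, 0.344 and 0.737. The B-MF cells also held B-cell transcripts, with Cd79a at 3.67 and 1.22 and Igkc at 9.78 and 1.0, and both genes were at 0 in the Mo-MF cells. Timd4 was at 0 in all 4, and Ccr7 was at 0 in all but the second Mo-MF library, where it averaged 0.211. Among the cultured libraries 45 barcodes were shared.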

How the data were processed

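Cells sort-purified as macrophages from 4T1.2 tumors, and B-MF and Mo-MF from culture, were sequenced with 10x Chromium 3′ chemistry. The authors processed the reads with Cell Ranger (the submitters' processing notes name the mm10 build), filtered cells by a minimum number of genes and genes by a minimum number of cells, and corrected counts with SCTransform in Seurat. The deposited values are the natural log (ln) of 1 plus the corrected count, and the conversion back gave whole numbers within 0.01 for all 21074130 tumor values above 0. The study also mentions an integration of libraries, and the whole numbers are corrected counts, not raw ones, so no count model was used and the sequencing depth is unknown. Only 4 tumor libraries with numbers of their own in the table were used. The table's numbers 2 to 5 were not matched to the replicate numbers of the sample titles, so each was taken as 1 unnumbered library of the tumor group; the study describes 4 mice.

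Corrected counts were averaged over the cells of a population in each library, a pseudocount of 0.1 was added before the log2, and populations were compared by limma 3.58.1 in R 4.3.3, with the library as a block, because the populations come from the same libraries. Genes whose mean reached 0.1 in any population were tested, the 9 rule genes were left out, and p-values were adjusted by Benjamini-Hochberg over all 7627 genes. The comparison with the other gated cells had 2 populations, and those with the MHC-II-low C1q-low and MHC-II-high C1q-high cells came from 1 fit of 4 populations. These comparisons share the MHC-II-high C1q-low cells. The members and the gene lists were chosen with earlier results of these data known. Named were the listed genes, up to 6 a list by size of difference or as markers of a cell type, and the 10 largest called differences in each direction with the same sign in all libraries and a mean of at least 0.5. The rule genes and Cd74, Cxcl9 and Timd4, the proposed markers, were given as description; the 3 markers stayed in the fit but were left out of the list counts. The procedure was tested on simulated data. Other pseudocounts, filters, scalings, averages and limits of the rule, the fit without the block, and the omission of each library or of cells with markers of other types were tried, and the omission of B-lineage cells and the fits of only 2 populations were added after seeing the data. Python 3.11.15, pandas 2.3.3 and scipy 1.17.1 were used for the rest. Some genes are not reported here.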

Additional observations from a re-analysis of the deposited data

Results flagged for a closer look

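In 15 of 188 results examined over the 4 libraries, 1 library lay far from the other 3. Its gap over the range was above Dixon's 95% critical value for 4 samples. The 188 were the share of gated cells and differences of named genes, and all 15 flagged were gene differences. Chance alone gives about 1 in 20. Library 3 was the distant one in 9 of them, library 5 in 4 and library 2 in 2. Of all values below, 11 were the lowest of their 4. Library 3 had 8 MHC-II-high C1q-high cells.

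Against the other gated cells, library 3 was lowest for Ccr7 at 1.22 on the log2 scale (other libraries 2.47 to 2.58), for Cd24a at -1.25 (others -0.33 to -0.23) and for Bnip3 at -0.79 (others -0.35 to -0.32). Library 2 was lowest for Lgmn at -0.25 (others 0.03 to 0.07), and highest for Ccl2 at -0.70 (others -1.29 to -1.20). Library 5 was lowest for Cxcl10 at 0.18 (others 0.59 to 0.64) and for Il15 at -1.0 (others -0.50 to -0.41), and highest for Thbs1 at -0.52 (others -1.25 to -1.18).

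Against the MHC-II-low C1q-low cells, library 3 was lowest for Ccr7 at 1.23 (others 2.35 to 2.58) and for Hopx at -1.97 (others -1.34 to -1.21). Against the MHC-II-high C1q-high cells, library 3 was highest for Cd81 at -0.93 (others -2.41 to -2.32) and for Gbp5 at 3.09 (others 0.48 to 0.89), and lowest for Cxcl16 at -1.56 (others -0.81 to -0.76) and for Cebpb at -0.078 (others 1.12 to 1.28). Library 5 was lowest for Serpina3g at -2.32 (others -1.35 to -1.23).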

How the results depend on the processing

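The populations of a library were blocked together because their cells come from the same library; with no replicate block, 371 genes were higher and 315 were lower than in the other gated cells (623 and 572 with it), and the counts of the other comparisons stayed within 1.5 times. Against the other gated cells, a filter at a mean of 0.5 gave 400 and 377 genes, no filter gave 413 and 296, requiring at least 2 Csf1r counts gave 365 lower genes and averaging the deposited log values gave 348. Leaving out 1 library gave 373 to 617 higher and 329 to 590 lower genes.

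Against the MHC-II-low C1q-low cells (89 higher and 30 lower), a C1q limit of 15 gave 190 and 98 genes, at least 2 Csf1r counts gave 49 and 17, leaving out cells with markers of other types gave 49 and 16, and a fit of only 2 populations gave 849 and 795. Lower genes alone numbered 57 with a class II limit of 40, 18 with an S100a8 and S100a9 limit of 100, 49 with the filter at 0.5, 88 with averaged log values, 16 with a pseudocount of 0.02 and 82 with a pseudocount of 1. Leaving out 1 library gave 25 to 109 higher and 8 to 42 lower genes. Against the MHC-II-high C1q-high cells (938 and 602), a fit of only 2 populations gave 307 and 152, at least 2 Csf1r counts gave 338 lower genes, and leaving out 1 library gave 319 to 1287 higher and 210 to 795 lower genes. The share of gated cells was 22.0% with a class II limit of 40 and 27.3 to 30.7% without 1 library. The causes of these shifts were not tested.

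Of the named genes called, 57 of 112, 16 of 28 and 29 of 43 in the 3 comparisons kept their call under every setting run for them, and scaling to the same total lost none. Of 39 counts of called genes per list that reached 4, 35 moved by over 1.5 times under at least 1 setting (16 of 19 in the comparison with the other gated cells). There the higher genes ran from 8 to 13 for class I presentation, 4 to 15 for the interferon-γ response and 2 to 9 for dendritic cell markers, and the lower ones from 6 to 14 for the cell cycle and 2 to 10 for lipid handling. Signs turned for Lgmn (-0.03 as reported; 0.011 with at least 2 Csf1r counts, 0.0738 with averaged log values, 0.0703 without cells of other types, and -0.0607 to 0.0446 when 1 library was left out, the highest without library 2), Cd274 (-0.018 with at least 2 Csf1r counts, and 0.0162 to 0.297 when 1 library was left out, called only without library 3) and Il23a (0.10 with an S100a8 and S100a9 limit of 100, and -0.59 to -0.26 when 1 library was left out). Precision was limited by 4 libraries, by the 8 C1q-high cells of library 3 and by genes counted in few cells.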
